A study of Homo sapiens with 6 samples.

Results

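The HOX cluster genes are described here in the ATAC-seq peak lists of SK-N-AS cells, a human neuroblastoma cell line that the labels write as SKNAS. They were chosen as all protein-coding genes of GENCODE release 44 whose symbol is HOXA, HOXB, HOXC or HOXD followed by a number, which gave 39 genes of 20033. There were 11 HOXA genes on chromosome 7, 10 HOXB genes on chromosome 17, 9 HOXC genes on chromosome 12 and 9 HOXD genes on chromosome 2. No gene was left out for a low value. ATAC-seq cuts open chromatin with the Tn5 transposase, and a peak is a stretch with more cuts than the background. A peak was given to a gene when it shared at least 1 base with the gene body or the 2 kb on either side of it.

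All cells came from xenografts of the SK-N-AS line in mice and were grown without treatment after the tumors had been taken. The naïve cells came from tumors of mice given vehicle. The cells named R1 and R2 came from indisulam-resistant tumors, taken at the second relapse during the third cycle of indisulam, a compound that brings the splicing factor RBM39 to the DCAF15 ubiquitin ligase for degradation. There were 2 libraries for each of the 3 cell types and 100000 cells for each library. Whether the 2 libraries of a cell type were separate cultures is not given in the sources used here, so the spread between them may be technical. R1 and R2 are each 1 cell population, so that a difference between them and the naïve cells cannot be told apart from a difference between tumors. With 2 libraries a side, the smallest p that an exact permutation test allows is 0.167 for 1 resistant population against the naïve cells and 0.0667 for both together. No test was therefore made, and values are given for each library.

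HOX proteins are homeodomain transcription factors that give cells their position along the head-to-tail axis. Genes with a low number stand at the 3′ end of each cluster and are used toward the head, in the hindbrain, and genes with a high number stand at the 5′ end and are used toward the tail and in the limbs and genital tract. Polycomb complexes hold the clusters silent, trithorax proteins such as KMT2A keep them active, CTCF sets boundaries within them, and HOX proteins bind DNA together with PBX and MEIS cofactors. Sympathetic neuroblasts, from which neuroblastoma arises, come from the neural crest of the trunk.

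The depth of the libraries differed and touches every result. The deposited lists held 154926 and 115694 peaks in the naïve libraries, 340558 and 292030 in the R1 libraries, and 67558 and 73484 in the R2 libraries. With the first R2 library set to 1, the depth recovered from the lists was 2.69 and 1.59 in naïve cells, 9.34 and 6.39 in R1 cells, and 1.06 in the other R2 library. A summit had to reach 7.06 and 6.68 times the background rate to be listed in R2, 3.93 and 5.18 times in naïve, and 2.27 and 2.58 times in R1. For this reason each gene was given its best peak by p-value and then a percentile among all 20033 protein-coding genes of the same library, with genes that had no peak tied at the bottom. The second scale used is the summit's tags divided by the background rate of the library, called times background. Markers of neuroblastoma cells were looked at as a check of the label, and 7 of 8 adrenergic genes and 9 of 10 mesenchymal genes had a peak in all 6 libraries, against 3 of 6 genes of other lineages and 66.5% of all genes, and the median percentile of these lists ranged from 40.3 to 57.6, from 57.2 to 70.3, and from 21.0 to 40.1 over the libraries. The adrenergic range spans the median of all genes, and INS, counted among the other lineages, had the same values as its adrenergic neighbour TH, so the check of the label is weak.

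The regions that carry the HOX signal are shown first. Overlapping peaks of the 6 libraries were joined, which gave 249 regions in the HOX windows, of which 29 had a peak in all 6 libraries. Below are 300 bases around the summit of the region with the highest mean rank in HOXD, HOXA and HOXB, and of the region at the start of HOXD10, the gene that stood apart between resistant and naïve cells. All are on the plus strand of hg38. Capitals mark a TAAT core of homeodomain binding, on either strand, or a match to the CTCF motif.
HOXD, inside HOXD3, chr2:176140478-176140777: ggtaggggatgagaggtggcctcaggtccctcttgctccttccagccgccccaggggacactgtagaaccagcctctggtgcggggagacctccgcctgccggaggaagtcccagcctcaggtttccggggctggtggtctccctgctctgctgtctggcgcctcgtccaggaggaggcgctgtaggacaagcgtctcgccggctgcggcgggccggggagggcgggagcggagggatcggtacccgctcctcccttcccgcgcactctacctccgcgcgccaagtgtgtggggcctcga
HOXA, between HOXA7 and HOXA9, chr7:27160983-27161282: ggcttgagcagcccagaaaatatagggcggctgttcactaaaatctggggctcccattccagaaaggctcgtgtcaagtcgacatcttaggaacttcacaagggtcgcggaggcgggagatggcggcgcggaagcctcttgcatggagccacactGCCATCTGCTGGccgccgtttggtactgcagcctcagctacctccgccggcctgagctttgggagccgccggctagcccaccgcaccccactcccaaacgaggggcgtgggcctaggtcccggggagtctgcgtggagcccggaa
HOXB, inside HOXB6, chr17:48602513-48602812: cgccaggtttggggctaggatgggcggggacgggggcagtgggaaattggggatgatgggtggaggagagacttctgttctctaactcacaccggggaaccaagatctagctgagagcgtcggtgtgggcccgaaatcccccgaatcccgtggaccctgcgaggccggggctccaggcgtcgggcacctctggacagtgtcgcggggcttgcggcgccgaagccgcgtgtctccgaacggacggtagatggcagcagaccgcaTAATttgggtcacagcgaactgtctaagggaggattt
HOXD10 start, chr2:176116410-176116709: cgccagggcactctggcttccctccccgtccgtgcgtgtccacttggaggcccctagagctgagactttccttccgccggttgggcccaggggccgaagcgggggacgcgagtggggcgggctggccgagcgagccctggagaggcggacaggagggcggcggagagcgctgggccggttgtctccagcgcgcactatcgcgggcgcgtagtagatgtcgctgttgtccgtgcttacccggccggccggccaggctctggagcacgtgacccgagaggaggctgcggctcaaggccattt

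A region in HOXC was the most open HOX region in each of the 4 resistant libraries and in the first naïve library. Its summit lies in introns of HOXC4 and HOXC6. Its summit reached 18.8 and 19.2 times background in naïve cells, 25.6 and 29.8 times in R1 cells, and 27.0 and 26.7 times in R2 cells. The 4 resistant values lay above both naïve values, and the summits of the 6 libraries fell within 65 bases of each other. The share of other regions with this order is not given here, so the order cannot be read as particular to this region.

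The HOXD region, chr2:176140154-176141547, lies in an intron of HOXD3, 10922 bases upstream of the canonical HOXD4 start. It reached 13.6 and 20.0 times background in naïve, 20.3 and 14.5 in R1, and 22.3 and 15.6 in R2, so the cell types overlapped. The HOXA region, chr7:27159997-27162410, lies outside annotated genes, 4404 bases downstream of the HOXA9 start. Its values were 10.9 and 17.0 in naïve, 15.2 and 15.6 in R1, and 17.6 and 11.1 in R2, again with overlap. It was the single region of the 29 with a match to the CTCF motif. The HOXB region, chr17:48595875-48603344, was the longest of all with 7470 bases, its summit lies in introns of HOXB3 and HOXB6, and it reached 11.8 and 13.3 times background in naïve, 12.0 and 11.4 in R1, and 11.8 and 18.9 in R2.

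Of the 29 regions, 10 had their summit within 1 kb of a canonical HOX start, 7 within 1 kb of another annotated start, and 12 farther from any start. The summit lay in an intron of a HOX gene in 15 regions, in an exon of one in 5, in another gene in 6, made up of 2 in exons and 4 in introns, and outside genes in 3. The HOX regions were low beside the 24147 regions of the genome with a peak in all 6 libraries. Their median was 9.18 and 10.4 times background in naïve, 10.6 and 9.94 in R1, and 11.8 and 11.1 in R2, and the genome median was 11.8 and 13.3, 13.5 and 13.2, and 15.3 and 15.6 in the same order. Between 2 and 10 of the 29 lay above the genome median, depending on the library.

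**Figure D1:**
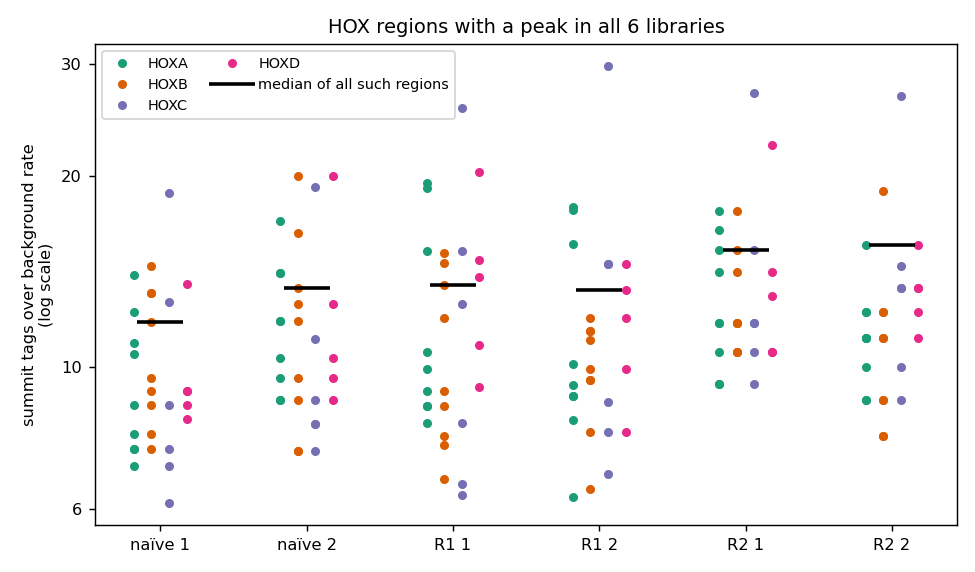
Times background (summit tags over the background rate, log scale) of the 29 HOX regions with a peak in all 6 libraries, one point for each region and library, coloured by cluster. Black bars are the median of the 24147 such regions of the genome, and the HOXC region at 18.8 to 29.8 is at or near the top in each library.

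Motif counts in the HOX regions were small. TAAT was found in 10 of 29 (34.5%) against 27.4% of the 24147 regions, TGATNNAT, the site of HOX with PBX, in 0 against 3.18%, the AP-1 site TGANTCA in 1 (3.45%) against 9.48%, and the CTCF motif in 1 (3.45%) against 3.30%. Both strands of 300 bases at the summit were searched, and a TAAT can lie inside a TGATNNAT. The median GC content was 66.3% against 64.7%, and the median ratio of observed to expected CpG was 0.698 against 0.579. HOX promoters in the RefSeq table of GRCh38.p14, 27 entries for 20 of the 39 symbols, held TAAT in 21 (77.8%) against 50.2% of 35116 promoters and TGATNNAT in 3 (11.1%) against 7.40%, and their median CpG ratio was 0.849 against 0.579.

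Nearly all HOX genes had some open chromatin. A peak was present in both libraries for 38 of 39 HOX genes in naïve cells, where 75.1% of all genes had one, for 39 in R1, where 89.0% had one, and for 30 in R2, where 68.4% had one. All 6 libraries had a peak for 30 HOX genes (66.5% of all genes), and no HOX gene lacked a peak in more than 3 libraries. Among the 9 genes with fewer, HOXD1, HOXA4, HOXC13, HOXC11 and HOXB1 had a peak in 5 libraries, HOXA2 and HOXB2 in 4, and HOXD4 in 3. HOXB1 patterns the hindbrain, and HOXA2 and HOXB2 the hindbrain and the branchial arches. By number, a grouping made after these values were seen, a peak in all 6 libraries was present for 5 of 12 genes numbered 1 to 4, for 11 of 11 numbered 5 to 8, and for 14 of 16 numbered 9 to 13. All of the libraries that lacked a peak for these 9 genes were R2 libraries, except the second naïve library for HOXD4.

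The strongest peaks were fewer among HOX genes than among genes at large. The HOX windows have a median of 8.22 kb against 31.5 kb over all genes, and a longer window can hold more peaks. Within the 20000 best peaks of each list, 15 of 39 HOX genes were hit in both naïve libraries against 48.8% of all genes, 17 in both R1 libraries against 62.6%, and 6 in both R2 libraries against 49.3%. The 6 in R2 were HOXB3, HOXB6, HOXB7, HOXC4, HOXC6 and HOXD3, each of which overlaps another HOX gene. The median percentile of the 39 genes was 39.6 and 45.5 in naïve, 35.4 and 34.7 in R1, and 36.3 and 34.9 in R2, where the median over all genes was between 48.5 and 51.9.

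At the starts themselves, which are windows of equal length for all genes, the HOX genes also ranked below the middle. A peak lay within 1 kb of the canonical start in both libraries for 32 HOX genes in naïve (65.3% of all genes), for 39 in R1 (82.4%) and for 12 in R2 (56.6%). The 12 in R2 were HOXA7, HOXA11, HOXA13, HOXB4, HOXB5, HOXB9, HOXC5, HOXC8, HOXC10, HOXD8, HOXD9 and HOXD11. The median start percentile was 41.2 and 42.0 in naïve, 36.7 and 36.3 in R1, and 19.4 and 39.9 in R2, and the low first R2 value is that of a gene without a peak. With the same floor of 7.06 times background in each library, which is the highest floor of the 6 lists, starts of 21 and 28 HOX genes reached it in naïve, 28 and 27 in R1, and 14 and 22 in R2. Over all genes it was reached by 60.0% and 65.4%, 68.6% and 68.1%, and 61.1% and 62.1%.

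Along the HOXA cluster the middle and the 5′ end were the most open. HOXA3, which is needed for the thymus and parathyroid glands, and HOXA6 shared their best peak and had percentiles of 61.6 and 54.5 in naïve, 62.3 and 60.5 in R1, and 36.3 and 51.9 in R2. At the other end HOXA13, a gene of the digits, hindgut and genital tract, had 45.9 and 54.5, 63.4 and 60.0, and 53.4 and 34.9. HOXA9, known for its part in leukaemia, had 48.0 and 65.0, 50.0 and 53.6, and 57.4 and 34.9. For HOXA9 the cell types overlapped. For HOXA13 both R1 libraries lay above both naïve ones, and for HOXA3 and HOXA6 both R2 libraries lay below the other 4, but neither by more than the spread within a cell type. HOXA2 lay between 22.5 and 38.8 in the naïve and R1 libraries and had no peak in R2.

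In the HOXB cluster the naïve libraries had the higher percentiles. By the best peak in its window, HOXB3 led with 63.3 and 74.2 in naïve, 49.6 and 40.6 in R1, and 57.4 and 63.0 in R2. All 4 resistant libraries thus lay below both naïve ones, the second R2 library by under 1 percentile point. The body of HOXB3 holds HOXB4 and HOXB5, so it takes in their peaks. At its own canonical start HOXB3 had 41.2 and 45.2 in naïve, 28.5 and 28.0 in R1, and no peak in R2. The highest mean start percentile of the cluster was that of HOXB5, 54.9. HOXB5, which acts in neural crest cells of the gut, had 57.9 and 62.6 in naïve, 47.8 and 32.8 in R1, and 49.4 and 34.9 in R2. HOXB13, the prostate homeobox gene that stands far from the other members of the cluster, had 41.8 and 57.2 in naïve, 29.6 and 32.8 in R1, and 36.3 and 39.2 in R2. In HOXB5 and HOXB13 all 4 resistant libraries lay below both naïve ones, but by less than the spread within a cell type. The cluster median was 42.8 and 48.5 in naïve, 32.7 and 34.4 in R1, and 34.3 and 37.0 in R2, without overlap.

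In the HOXC cluster HOXC4 and HOXC6 stood far above the others because the strongest HOX region lies within both gene bodies. Their percentile was 78.4 and 72.1 in naïve, 79.8 and 89.2 in R1, and 80.7 and 81.5 in the R2 cells, the highest of the 39 genes in each library but the second naïve one. At their canonical starts the values were low: HOXC6 had a start peak in 3 libraries and HOXC4 in 5. HOXC9, studied in neuroblastoma for its part in differentiation, had 28.5 and 28.6 in naïve, 41.3 and 49.9 in R1, and 40.8 and 28.7 in R2. HOXC10, which acts in motor neurons of the hindlimb, had 30.8 and 42.3, 50.0 and 49.9, and 36.3 and 47.9. HOXC12 and HOXC13 at the 5′ end stayed between 24.3 and 32.4 wherever they had a peak.

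By the best peak in its window, HOXD3 had the highest values of the HOXD cluster in each library but the first naïve one, where HOXD10 was higher. Its values were 59.8 and 74.2 in naïve, 65.7 and 49.9 in R1, and 70.4 and 51.9 in R2. They come from the region in its intron. HOXD3 had a start peak in 3 libraries, at percentiles of 36.5 in the first naïve library and 30.8 and 28.0 in R1. HOXD8 had a start peak in all 6 libraries and the highest mean start percentile of the cluster, 53.4. HOXD1 had 59.8 and 57.2 in naïve, 49.2 and 44.7 in R1, no peak in the first R2 library and 28.7 in the second. HOXD12 and HOXD13, genes of the digits, had 37.3 and 31.7, and 35.2 and 31.7, in naïve, the same 45.3 and 40.6 in R1 because they shared a best peak, and 45.2 with 39.2 for HOXD12 and 45.2 with 34.9 for HOXD13 in R2. HOXD4, a gene of the hindbrain and neck, was the least open HOX gene, with a peak in the first naïve library at 6.56 times background and in R1 at 5.79 and 6.99 times.

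**Figure D2:**
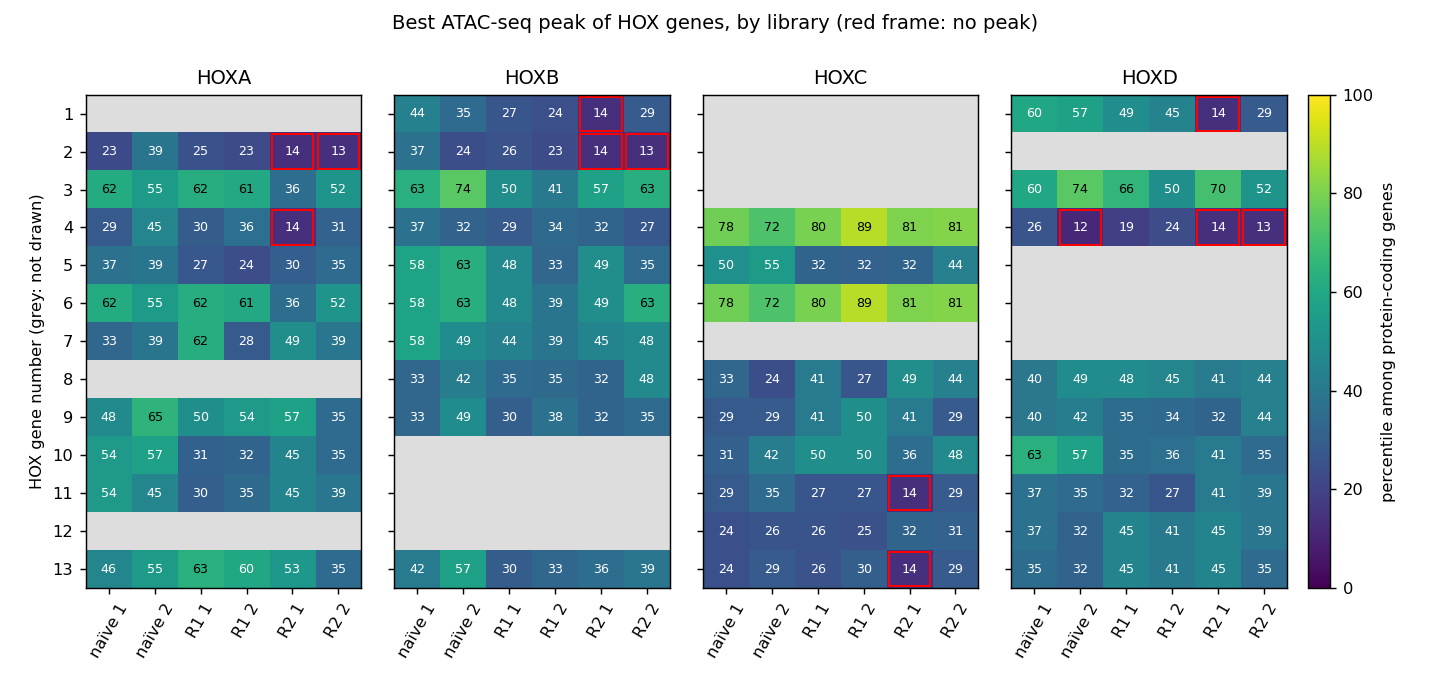
Percentile of the best peak of 38 HOX genes among 20033 protein-coding genes, by cluster (panels), gene number (rows) and library (columns); red frames mark genes without a peak, and grey cells are not drawn. HOXC4 and HOXC6 are the brightest rows, and 11 of the 12 red frames are in R2 libraries.

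**Figure D3:**
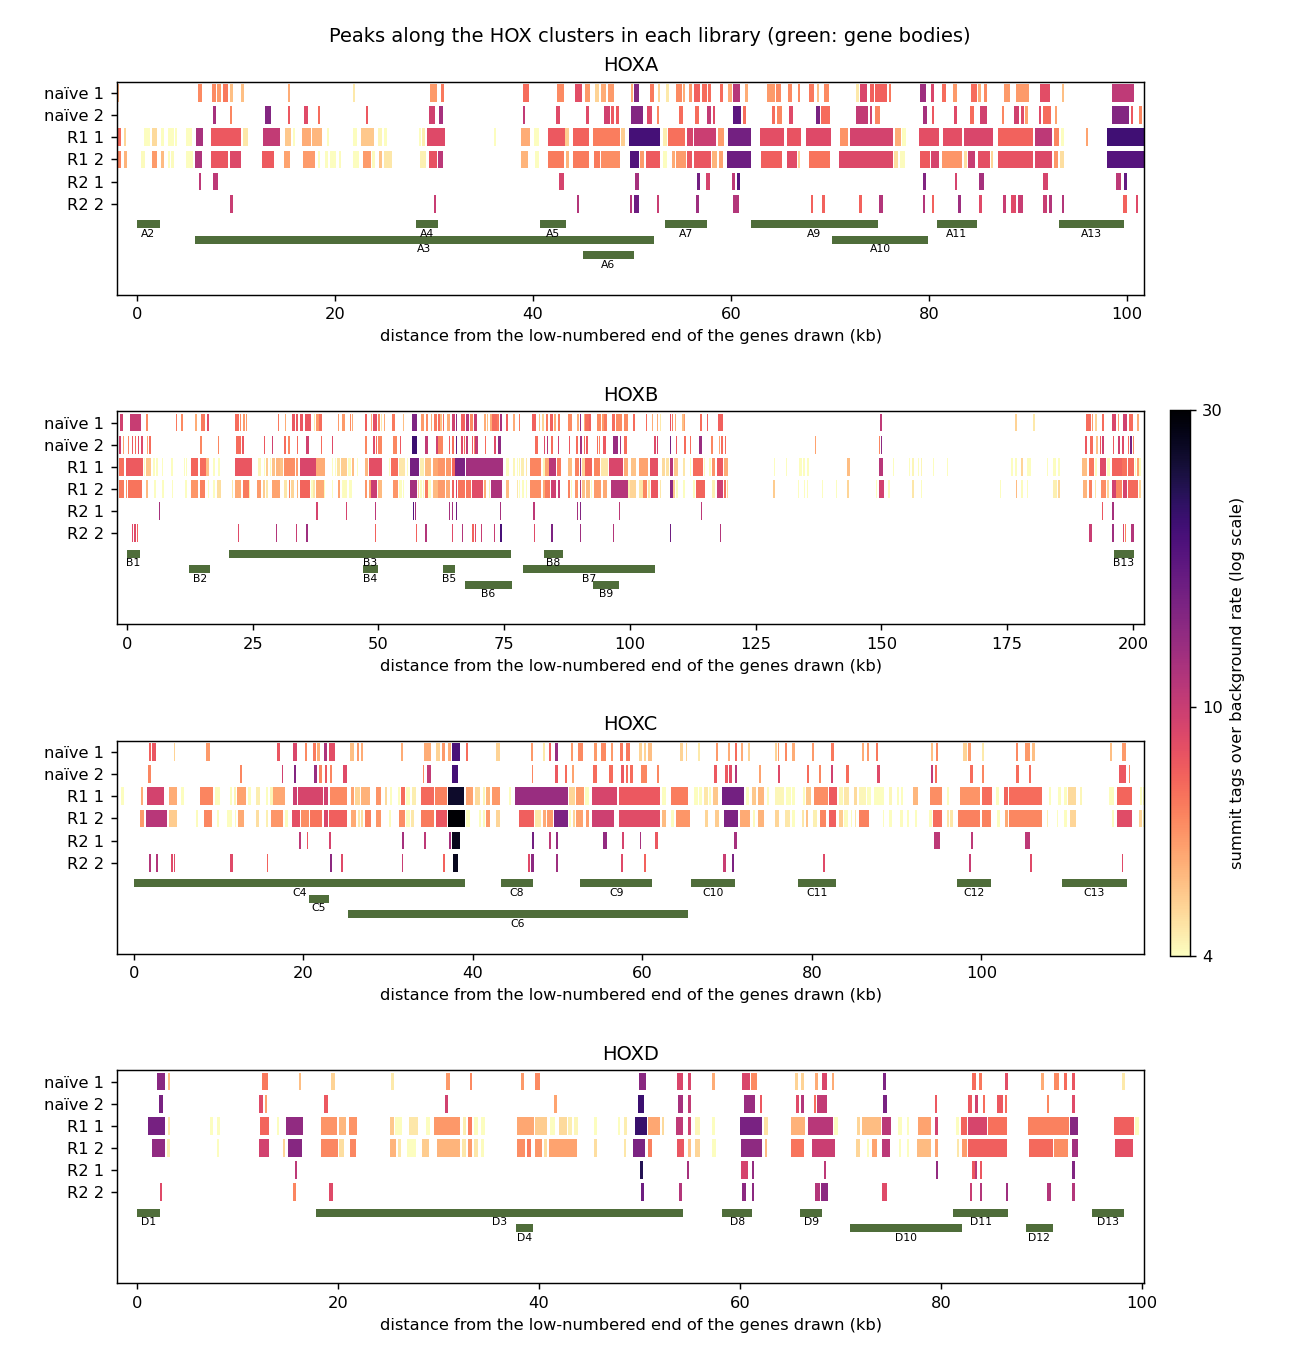
Peaks along the clusters in each library, with distance from the low-numbered end of the genes drawn in kb on the horizontal axis and colour giving times background on a log scale that starts at 4; green bars are gene bodies. The R1 rows are filled with long pale peaks, the R2 rows hold 56 and 82 short ones within the gene windows, and the darkest block lies in HOXC where HOXC4 and HOXC6 overlap.

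With all listed peaks, the HOX windows were more densely covered than gene windows at large. Peaks covered 99006 and 65221 of the 410246 bases of the joined HOX windows in naïve (24.1% and 15.9%), 258874 and 228376 in R1 (63.1% and 55.7%), and 15957 and 22975 in R2 (3.89% and 5.60%). Over the windows of all protein-coding genes the share was 4.79% and 3.31%, 12.1% and 10.2%, and 1.56% and 1.71%. The HOX share was thus 5.04 and 4.80 times that of all genes in naïve, 5.21 and 5.47 times in R1, and 2.50 and 3.27 times in R2. Other homeobox genes had 4.74 and 4.29, 4.12 and 4.25, and 3.00 and 3.15 times in the same order. With the 20000 best peaks of each list the HOX ratios were 1.15 and 2.15, 3.33 and 2.50, and 1.01 and 0.73. The 223 and 172 peaks of naïve cells in these windows had a median of 6.56 and 8.14 times background (6.56 and 8.88 over the whole lists), the 263 and 282 of R1 had 5.16 and 5.70 (4.03 and 4.42), and the 56 and 82 of R2 had 11.2 and 10.0 (11.8 and 11.1). The typical HOX peak was thus above that of the list in R1 and at or below it in naïve and R2. R1 peaks were long, with a median of 612 and 544.5 bases (389 and 382 over the whole lists). The HOX windows are short, with a median of 8.22 kb against 31.5 kb over all genes. Among the 7281 genes with windows of at most 20 kb, 33 of them HOX genes, the median percentile of the covered share was 71.8 and 72.1 in naïve, 73.2 and 71.1 in R1, and 52.5 and 62.2 in R2 for HOX genes. Other homeobox genes of that length, 47 of them, had 63.5 and 62.5, 72.1 and 71.5, and 59.5 and 63.7.

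The clusters differed in how the covered share moved between cell types. With each list held to its best 67558 peaks, as many as the shortest list has, peaks covered 6.18% and 5.80% of the HOXC windows in naïve, 46.8% and 40.0% in R1, and 4.59% and 4.59% in R2. As multiples of the share over all genes, these were 1.86 and 2.27 times, 6.96 and 6.73 times, and 2.95 and 2.81 times. For HOXB the corresponding ratios were 6.91 and 4.53, 7.29 and 6.45, and 2.08 and 3.12, for HOXA 3.75 and 4.89, 7.07 and 6.74, and 2.91 and 2.78, and for HOXD 1.93 and 2.50, 5.19 and 4.87, and 2.02 and 3.11. With these equal lists both R1 libraries lay above both naïve ones in HOXA, HOXC and HOXD but not in HOXB. With all peaks the ratios were 3.90 and 3.36 in naïve and 5.47 and 5.75 in R1 for HOXC, 2.63 and 2.95 against 4.26 and 4.48 for HOXD, 5.16 and 6.01 against 5.01 and 5.45 for HOXA, and 7.95 and 6.47 against 5.94 and 6.04 for HOXB, so that R1 lay above naïve in HOXC and HOXD alone. Depth and cell type go together here, since both R1 libraries were deeper than any other, and their parts cannot be told apart.

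**Figure D4:**
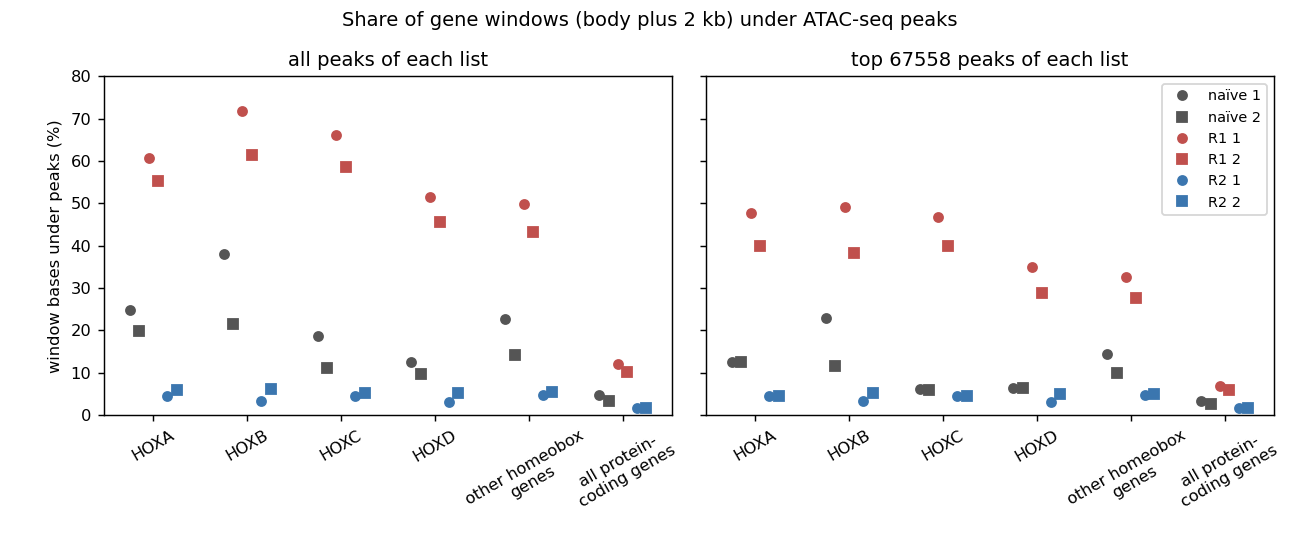
Share of gene window bases under peaks (%) in the 4 clusters, in other homeobox genes and in all protein-coding genes, with all peaks (left) and the best 67558 peaks of each list (right); colours are cell types, circles first and squares second libraries. R1 is highest in every set, and the HOXC share of naïve cells falls to 6.18% and 5.80% on the right.

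Of the 249 regions, 99 had peaks in R1 alone, 66 of them in both R1 libraries. These were weak, with a median of 4.05 times background and at most 7.81. Scaled to the depth of the other 4 libraries, 49 of the 99 fell below the lowest pileup listed in all of them, and 2 reached it in all of them. Peaks in naïve and R1 but not R2 made up 78 regions, 2 were found in naïve alone, and 0 in R2 alone. Regions present in all 4 resistant libraries and in neither naïve library numbered 0, and regions present in both naïve libraries and in no resistant library also numbered 0. The shares of these classes over the whole genome are not given here. The counts therefore do not show whether the HOX clusters differ from other regions.

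The comparison of resistant with naïve cells asks which HOX genes differed in the tumors that had stopped responding to indisulam. A gene stood apart when all resistant libraries lay on one side of both naïve libraries by more than any difference between 2 libraries of a cell type. By this rule 0 HOX genes stood apart as more open in R1 and R2 together, where 4.15% of all genes did, and 1 as less open, where 3.13% did. The less open share of the HOX genes, 2.56%, was thus no higher than that of all genes. The 1 gene was HOXD10, which specifies motor neurons of the hindlimb. Its percentile was 63.3 and 57.2 in naïve, 35.4 and 36.5 in R1, and 40.8 and 34.9 in R2, without overlap. At its start, in the 932 bases of chr2:176115851-176116782 shown above, the summit lies 218 bases upstream of the canonical start and reached 14.4 and 14.8 times background in naïve, 10.7 and 10.7 in R1, no peak in the first R2 library and 8.90 in the second. The 33 and 20 tags of the naïve libraries, scaled to the depth of the first R2 library, come to 12.3 and 12.6. The 85 and 58 tags of the R1 libraries come to 9.10 and 9.07, and the lowest listed pileup there is 6. Why no start peak was listed was not tested. The R2 percentiles of HOXD10 thus came from peaks elsewhere in its window. HOXD10 stood apart under each alternative run but the windows around canonical starts, where HOXB3 did in its place. At its start HOXD10 had percentiles of 70.4 and 64.8 in naïve, 42.9 and 44.4 in R1, and 39.9 in the second R2 library. It missed the rule there because the first R2 library, without a start peak, widened the R2 spread. HOXB3 met the rule with no start peak in either R2 library. Ranking by fold could not change the call of HOXD10, because fold and p order the peaks of a list alike. The runs that leave out a library use a looser rule, since a cell type with 1 library has no spread.

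Taken singly, the resistant populations share the naïve libraries as their reference. In R1, 2 HOX genes stood apart as more open, HOXD13 and HOXC9 (14.7% of all genes), and 9 as less open (22.0%): HOXD10, HOXD9, HOXD1, HOXA5, HOXA10, HOXA11, HOXC5, HOXB3 and HOXB6. In R2, 2 stood apart as more open, HOXC12 and HOXC8 (22.1%), and 2 as less open, HOXD10 and HOXD1 (7.51%). The 9 of 39 in R1 (23.1%) stand beside 22.0% of all genes. Genes without a peak in any library make up 8.42% of all genes and 0 HOX genes. Their tied percentiles make them count as less open in R1 and as more open in R2. Those background shares are thus raised, and whether the HOX counts differ from them was not tested. Among the 9 genes, HOXA10, a gene of the uterus, had 54.0 and 57.2 in naïve, 31.2 and 32.2 in R1, and 45.2 and 34.9 in R2. HOXC8, which acts in motor neurons of the forelimb, had 33.0 and 24.2 in naïve, 41.3 and 26.9 in R1, and 49.4 and 43.7 in the R2 cells. The values of HOXC8 in R2 lay above those of naïve without overlap, and those of R1 overlapped with naïve.

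By cluster, the difference of means between resistant and naïve cells had a different sign in HOXB and HOXC. In HOXB the median difference was -12.85 percentile points in R1 and -7.86 in R2, and the mean was lower than in naïve for 10 of 10 genes in R1 and 9 of 10 in R2. In HOXC it was 5.45 and 5.85 points, and the mean was lower for 2 and 3 of 9 genes. The share of all genes with a lower mean is not given here. The counts therefore do not show whether these clusters differ from other genes. In R2, HOXB1 had no peak in the first library and HOXB2 in neither, so they were tied at the bottom there. HOXA had -4.73 and -13.97, and HOXD -6.19 and -2.89. Other protein-coding genes within 5 Mb of the clusters had medians of -2.27 and -1.96 around HOXB (146 genes), -0.13 and 2.38 around HOXC (253), 5.09 and 1.24 around HOXA (59), and 5.65 and 2.51 around HOXD (47). HOX genes of a cluster share peaks, with 23 to 31 distinct best peaks for the 39 genes, so they are not independent of each other, and whether the clusters differ was not tested.

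**Figure D5:**
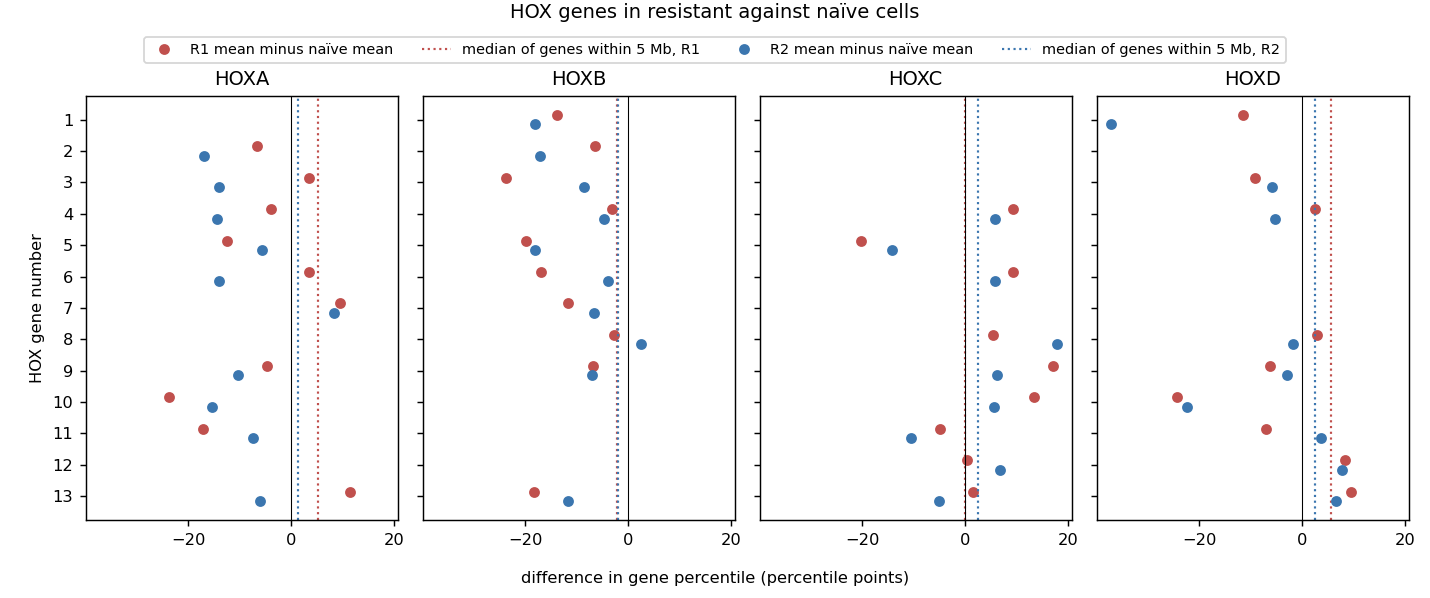
Mean gene percentile in R1 (red) and in R2 (blue) minus the naïve mean, in percentile points, for 38 HOX genes by number and cluster; dotted lines are the medians of protein-coding genes within 5 Mb. Most HOXB points lie left of 0 and most HOXC points to the right, and the share of all genes on either side is not given.

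The median percentile of the partners and regulators of HOX genes lay above that of the HOX genes. Of 9 cofactors of the TALE class, which bind DNA with HOX proteins, 8 had a peak in all 6 libraries, against 66.5% of all genes, and their median percentile ranged from 52.0 to 72.2 over the libraries, with PKNOX2 the lowest member. Of 19 regulators, 15 had a peak in all 6 libraries, with medians from 48.0 to 57.2, near the 48.5 to 51.9 of all genes. MEN1, a partner of KMT2A, was highest, and CDX4, an activator of HOX genes in the embryo, lowest. Other homeobox genes were more like the HOX genes: 45 of 65 had a peak in all 6 libraries, near the share over all genes, and their medians ranged from 38.4 to 43.7. Among them NKX6-1 was highest and PDX1 lowest.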

How the data were processed

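ATAC-seq peaks were called by the authors in each library separately. Per the labels and the methods, reads were aligned with BWA 0.7.12-r1039, duplicates were marked with Picard 1.65, reads were kept with SAMtools 1.3.1, and peaks were called with MACS2 2.2.7.1 at a q-value of 0.01. The methods name hg19, but the last peaks of all 24 chromosomes lie within hg38 lengths, as near as 9929 bases to the end, and hg38 was used with GENCODE release 44.

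Each deposited peak carries a fold over background, a ratio, and its p-value and q-value as −log10. Each deposited fold is tags plus 1 over the background rate plus 1. Tags and rate were recovered from the step between folds, and the p-value computed from them differed from the deposited −log10 by at most 2.3e-05. Genes were ranked by the deposited −log10 p of their best peak. This value grows with depth, so it was ranked within libraries only. The functions were tested on simulated data.

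The members and gene lists were chosen with earlier results of these data known. Genes named are all HOX genes, the best regions of each cluster, and the highest and lowest member of other lists, except items that are not reported here. Alternatives were a stricter q, other windows, overlaps and numbers of peaks, ranking by fold, a correction for neighbouring genes, and leaving out each library in turn. Equal list lengths, groups by gene number and genes with short windows were added after the data were seen. The 2 lists of a cell type held 0 HOX peaks with identical coordinates. The tools were BEDTools 2.31.1, Matplotlib 3.10.9, SciPy 1.17.1, pandas 2.3.3, NumPy 2.4.6 and Python 3.11.15.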

Additional observations from a re-analysis of the deposited data

Results flagged for a closer look

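HOXD11, a gene of the limb and kidney, had means on opposite sides of the naïve mean in the resistant populations. It stood apart from naïve in neither, because the gaps did not exceed the spread within a cell type. Both R1 libraries lay below both naïve libraries and both R2 libraries above them, so that the mean gene percentile of R1 was lower than that of R2 (difference -10.8 points). The difference between R1 and naïve was -7.01 points and that between R2 and naïve 3.75 points. The difference between R1 and R2 was not tested, and both share the naïve libraries as their reference.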

How the results depend on the processing

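No paired analysis was possible because the replicate numbers only name the libraries and no result comes from a test. With a −log10 q of at least 5, peaks covered 2.89% of the HOX windows in R2, and 2 HOX genes stood apart as less open in resistant cells. With gene bodies alone, the R1 median percentile was 34.0 and 3 genes stood apart as less open. Within 1 kb of canonical starts, 4, 5 and 0 HOX genes had a top 20000 peak in both naïve, R1 and R2 libraries, the R1 and R2 medians were 36.5 and 29.7, and 12 genes had a peak in both R2 libraries. With the top 10000 peaks the counts were 3, 5 and 2, and with the top 50000 they were 29, 38 and 27. After the shift of neighbouring genes was taken off, 2 genes stood apart as less open. With lists of equal length, a choice made after seeing the data, 10.8% of the HOX windows was covered in naïve and 41.1% in R1. Leaving out each library in turn gave 0 to 2 genes that stood apart as more open and 1 to 7 as less open. The most came without the first naïve library, where HOXA2, HOXA10, HOXB3, HOXB9 and HOXB13 were among the genes that joined HOXD10. HOXD10 remained among the less open genes in each of these 6 runs. The rule is looser in them, because a cell type left with 1 library adds no spread. Without 1 of the R2 libraries, 10 to 15 genes had a top 20000 peak in R2, counted in 1 library instead of both. The causes were not tested. In R2 a summit under 6 tags could not be listed. For most of these settings the share over all genes is not given. The counts therefore show only how the HOX values moved with the setting.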

Other observations

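The HOX clusters also hold microRNA genes. MIR10A and MIR10B, next to HOXB4 and HOXD4, each had a peak in 4 libraries, at 5.68 and 6.66 times background in naïve and 8.69 and 5.34 in R1 for MIR10A, and at 6.56 and 5.92 in naïve and 4.91 and 6.26 in R1 for MIR10B. Neither had a peak in R2, where a summit had to reach 7.06 and 6.68 times background to be listed. Of the values of these genes, only the 8.69 of MIR10A exceeded that. MIR615, inside HOXC5, had 11.4 and 12.6 times background in naïve, 9.70 and 9.20 in R1, and 9.41 in the first R2 library alone. MIR196B, in the HOXA cluster, had 6.99 and 14.8 in naïve, 8.94 and 7.18 in R1, and 7.79 in the second R2 library alone. MIR196A1 had a peak in 4 libraries and MIR196A2 in 3, all of them naïve or R1. These genes were chosen after the HOX values were seen, and differences between cell types were not tested.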
